A study of Arabidopsis thaliana with 12 samples.

Results

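CHLM (AT4G25080) and Z-ISO (AT1G10830) are nuclear genes for enzymes of pigment synthesis, the first in the chlorophyll branch and the second in the carotenoid branch. They were chosen by name, with earlier results of these data known, and not as the only pigment genes measured. In the platform's annotation each had 1 probe of its own, number 2091 for CHLM and number 1756 for Z-ISO. They are 2 of the 691 genes with a probe of their own, on an array whose table held 3439 probes. RNA came from 12 samples of Arabidopsis thaliana, 6 of the wild type (WT) and 6 of the mutant atc6, which the labels describe as lacking cytochrome c6, a haem protein. Both genotypes were of ecotype Columbia 0 and were raised on MS medium, a mineral medium for plant culture. The labels name no organ, no age and no mutant allele, so no marker of a tissue could be set against a label.

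CHLM encodes magnesium-protoporphyrin IX methyltransferase, which adds a methyl group to the magnesium porphyrin made by magnesium chelatase, before the cyclase closes the isocyclic ring of chlorophyll. Z-ISO encodes an isomerase that acts on zeta-carotene between the phytoene and zeta-carotene desaturases, on the way to lycopene. Chlorophyll gathers light in the photosystems, while carotenoids gather light and protect the photosystems from excess of it, and both pathways run in the plastid. They meet in geranylgeranyl diphosphate, from which the carotenoid backbone and the phytyl tail of chlorophyll are both built.

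Neither gene passed an adjusted p of 0.05 in limma for a difference between the genotypes. CHLM was 1.39-fold higher in atc6 (95% interval 0.843 to 2.29) and Z-ISO was at 0.555 of its wild-type level (95% interval 0.281 to 1.10). These are ratios of levels to which a small constant, the pseudocount, was added, so they depend on it. With pseudocounts at the 1st and 25th percentiles, the log2 difference of Z-ISO was -1.14 and -0.65, beside -0.85 as reported. That of CHLM was 0.53 and 0.41, beside 0.47. Both genes had an adjusted p of 0.845 in limma, which fits a linear model to each probe and draws on all probes to estimate its variance. In such bulk RNA, fewer cells of a type and less transcript per cell cannot be told apart. In both cases most of the difference came from atc6 replicates 1 and 2, in which CHLM was at its highest and Z-ISO at its lowest of all samples relative to the sample's median probe. The values that follow give this sample by sample.

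The samples of each genotype formed close doublets of replicates 1 and 2, 3 and 4, and 5 and 6, which were averaged, so that each genotype has 3 values. The median deposited intensity of a sample lay between 0.323 and 0.627 in 10 samples and was 4.46 and 4.52 in atc6 replicates 1 and 2, for which the scale is unknown. Their brightest probes were at 30.1 and 31.4, against 62.0 to 100 in the other samples, so their range above the median was narrower. Levels below are therefore given as multiples of the sample's own median probe, or as log2 levels after all samples were set to a common distribution (quantile normalization). Levels of different probes are not comparable. A rank among the probes of a sample, or a difference from another probe, therefore has a meaning only in how it changes between samples.

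CHLM, the methyltransferase of the chlorophyll branch, had deposited intensities from 0.479 to 0.839 in wild type, with a median of 0.751. In atc6 they ran from 0.432 to 12.9 with a median of 0.764, and the 2 highest, 12.8 and 12.9, were those of replicates 1 and 2. Relative to the median probe of its sample, CHLM lay between 0.979 and 1.45 in the wild-type samples. It was at 2.88 and 2.86 in atc6 replicates 1 and 2, at 1.54 and 1.52 in replicates 3 and 4, and at 1.48 and 1.34 in replicates 5 and 6. The first doublet of atc6 thus stood apart from the other 10 samples, while of the other 4 atc6 samples 3 lay just above the highest wild-type sample and 1 within the wild-type range. Its rank tells the same: CHLM was brighter than 90.7% and 90.0% of the probes in atc6 replicates 1 and 2, than 61.8% to 68.9% in the other atc6 samples and than 49.1% to 66.6% in wild type.

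On the normalized log2 scale the wild-type doublets of CHLM were at 0.93, 0.60 and 1.03, and the atc6 doublets at 1.94, 1.10 and 0.94. The groups overlapped, since the lowest atc6 doublet was below the highest of the wild type. The means were 0.85 ± 0.22 in wild type and 1.33 ± 0.54 in atc6 (SD, n = 3 averaged doublets). This gave a difference of 0.47 ± 0.31 (SE; 95% interval -0.25 to 1.19). By doublet number, atc6 minus wild type was 1.01, 0.50 and -0.09. CHLM was measured evenly within doublets: the 2 samples of a doublet differed by 0.0076 to 0.24 on the log2 scale. The spread behind its standard error lay between doublets, above all in atc6, where it was 0.998 from lowest to highest, against a median of 0.73 over all probes.

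**Figure D1:**
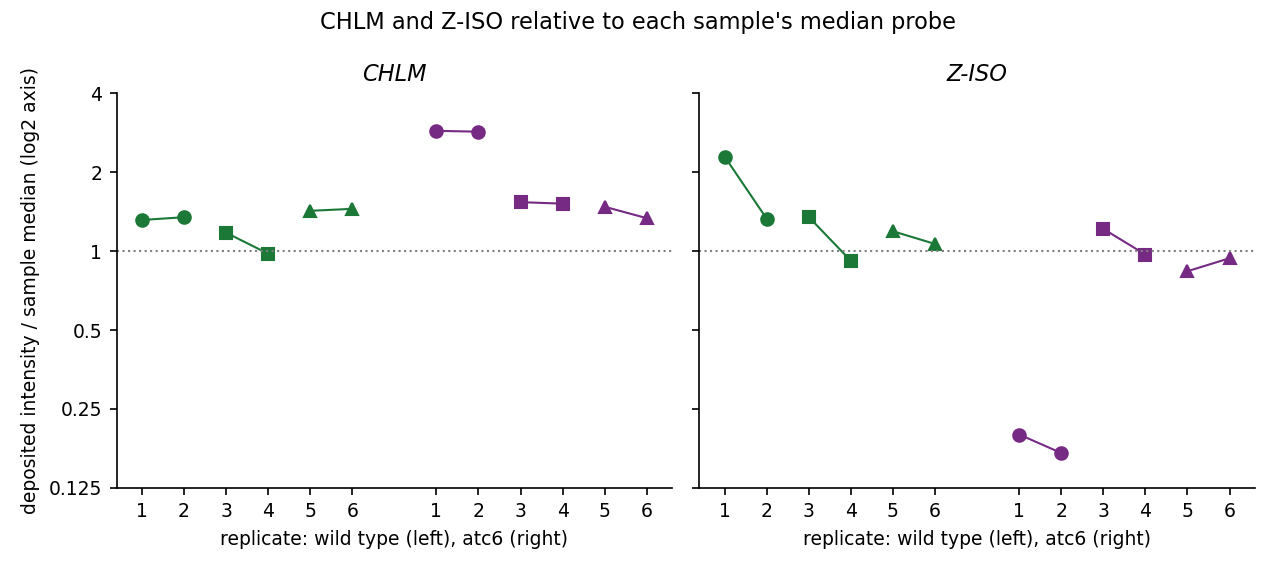
Deposited intensity of CHLM (left) and Z-ISO (right) divided by the median probe of the same sample, on a log2 axis, for replicates 1 to 6 of the wild type (green) and atc6 (purple); lines join the samples of a doublet and the dotted line marks the median probe. In atc6 replicates 1 and 2, CHLM is at 2.88 and 2.86 and Z-ISO at 0.200 and 0.170, while the other 4 atc6 samples lie within or close to the wild-type range.

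Z-ISO, the isomerase of the carotenoid branch, had deposited intensities from 0.449 to 1.44 in wild type, with a median of 0.640, and from 0.271 to 0.891 in atc6, with a median of 0.546. In atc6 replicates 1 and 2 it was at 0.891 and 0.767, within the wild-type range, although the median probe of those samples was at 4.46 and 4.52. Relative to the median probe, Z-ISO was thus at 0.200 and 0.170 in these samples. It was at 1.22 and 0.972 in atc6 replicates 3 and 4, at 0.839 and 0.940 in replicates 5 and 6, and between 0.919 and 2.29 in wild type. Z-ISO was brighter than 14.8% and 13.8% of the probes in atc6 replicates 1 and 2, than 43.2% to 58.8% in the other atc6 samples and than 46.6% to 84.5% in wild type. Again the first doublet of atc6 stood apart, here at the low end.

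The normalized log2 levels of Z-ISO were 1.28, 0.64 and 0.68 in the wild-type doublets and -0.93, 0.63 and 0.36 in those of atc6. The groups did not overlap, but the highest atc6 doublet was only 0.015 below the lowest of the wild type, and 5.38% of all probes had such non-overlapping doublets with lower values in atc6. The means were 0.87 ± 0.36 in wild type and 0.02 ± 0.83 in atc6 (SD, n = 3 averaged doublets). Z-ISO thus differed by -0.85 ± 0.42 (SE; 95% interval -1.83 to 0.13). By doublet number it was -2.21, -0.01 and -0.32, so that the first pair of doublets contributed most of it.

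The probe of Z-ISO also varied between the samples of a doublet. Wild-type replicates 1 and 2 differed by 0.73 on the log2 scale, more than 98.6% of all probes did in that doublet. Wild-type replicates 3 and 4 differed by 0.48 and atc6 replicates 3 and 4 by 0.32, more than 95.9% and 94.3% of the probes. These differences are larger than the distance of 0.015 that kept the groups from overlapping. CHLM showed no difference of such rank: its largest, 0.24 in wild-type replicates 3 and 4, exceeded that of 82.6% of the probes.

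Over all 3329 probes with a value above 0 in some sample, 0 passed an adjusted p of 0.05 in limma (0%), and 167 had an unadjusted p under 0.05 (5.02%). An ordinary test per probe called 0 too, and there 139 probes (4.18%) were below 0.05 before adjustment. Z-ISO had the 273rd and CHLM the 635th smallest unadjusted p, at 0.0808 and 0.167 in limma. The size of the difference, without regard to sign, exceeded that of 96.2% of the probes for Z-ISO and of 80.7% for CHLM, and the standard error that of 87.8% and 60.8%.

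The genes of the pathway were taken from lists of 80 genes of the chlorophyll and haem branch, chlorophyll breakdown, the carotenoid branch and the plastid supply of isoprenoids. Only 4 had a probe of their own, and 5 more shared a probe with other genes and were not used. Of the 36 genes listed for the chlorophyll and haem branch, 3 were measured, and of the 25 for the carotenoid branch, Z-ISO alone. Of the 4 genes, 2 had positive and 2 negative differences and 0 passed over all probes. Their median difference was 0.14, against 0.04 over all probes, of which 53.9% were positive.

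HEMA3 (AT2G31250, probe 1995) encodes a glutamyl-tRNA reductase, the enzyme type that opens the tetrapyrrole pathway. Its wild-type doublets were at 1.48, 1.65 and 1.23 on the log2 scale and its atc6 doublets at 0.63, 1.42 and 1.96, so that the atc6 doublets lay on either side of the wild type. The difference of -0.12 ± 0.35 (SE; adjusted p = 0.945 in limma) turned to 0.24 without atc6 replicates 1 and 2. Like Z-ISO, HEMA3 was lowest in the first doublet of atc6.

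CHLP (AT1G74470, probe 2360) encodes geranylgeranyl reductase, which makes the phytyl chain of chlorophyll. Its wild-type doublets were at 2.25, 2.21 and 2.37 and its atc6 doublets at 3.19, 2.52 and 2.30. The groups overlapped, and CHLP differed by 0.40 ± 0.28 (SE; 95% interval -0.25 to 1.04), at an adjusted p of 0.845 in limma. It was 0.13 without atc6 replicates 1 and 2 and 0.20 with samples scaled to a common median. As for CHLM, the first doublet of atc6 was the highest of the 6. That rank depends on the scale: relative to the median probe of its sample, CHLP was at 4.50 and 4.42 in atc6 replicates 1 and 2, below the 5.49 to 7.20 of the other atc6 samples and within the wild-type range of 3.71 to 5.84. CHLM was highest there on both scales.

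**Figure D2:**
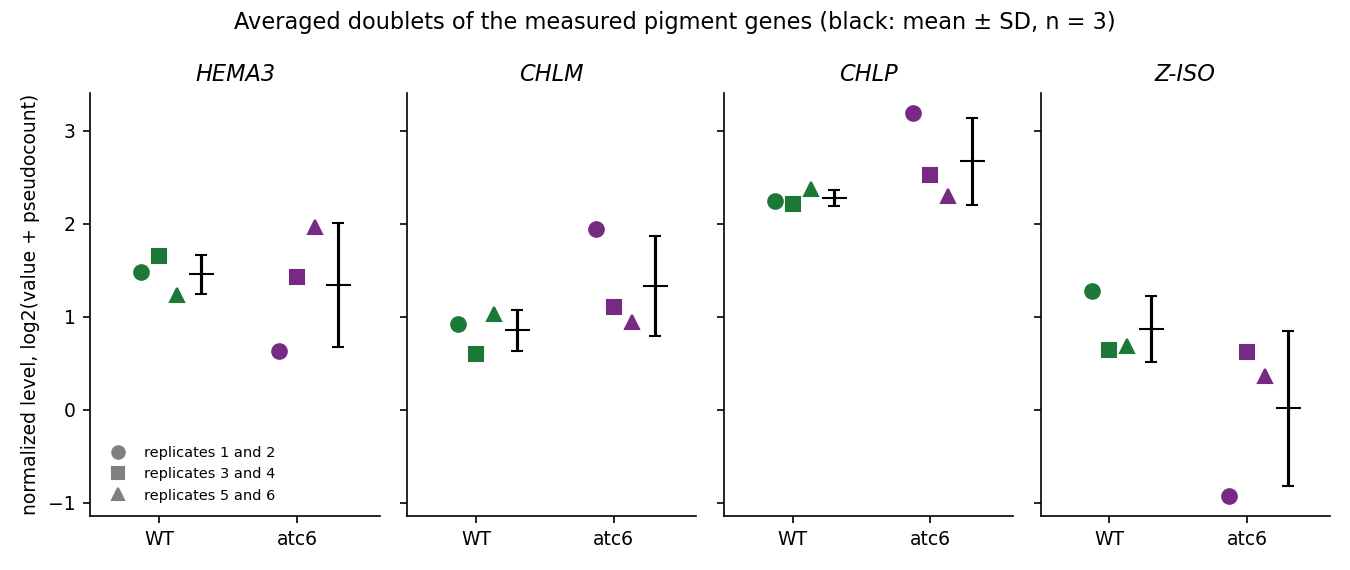
Normalized levels, as log2(value + pseudocount), of the 4 measured pigment genes in the averaged doublets of wild type (green) and atc6 (purple); the symbol gives the doublet, and the black bars give mean ± SD (n = 3). In atc6 the doublet of replicates 1 and 2 (circles) is the highest for CHLM, at 1.94, and CHLP, at 3.19, and the lowest for HEMA3, at 0.63, and Z-ISO, at -0.93.

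CHLM and Z-ISO can also be set against each other within a sample, each as a single probe that does not stand for its branch. HEMA3, of the same branch as CHLM, was lowest in the first doublet of atc6, as Z-ISO was. The levels were already quantile-normalized, so the subtraction adds little against a shared scale factor. Effects on single probes of a different range of values, as in atc6 replicates 1 and 2, need not cancel. The log2 level of CHLM minus that of Z-ISO was -0.35, -0.04 and 0.35 in the wild-type doublets and 2.87, 0.47 and 0.58 in the atc6 doublets. Its absolute size has no meaning, since different probes are involved, but its change between genotypes does. It averaged -0.02 ± 0.35 in wild type and 1.31 ± 1.35 in atc6 (SD, n = 3), a change of 1.32, for which no test was made, as for any score over genes chosen with earlier results known. The single samples overlapped, with atc6 replicate 3 at 0.33 below wild-type replicate 6 at 0.44. Without atc6 replicates 1 and 2, and with all samples normalized together, the change was 0.54, and with each gene taken relative to the probes numbered beside it, as described below, it was 0.33.

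Without these replicates the difference was 0.17 for CHLM and -0.37 for Z-ISO, on the same normalization, with adjusted p = 0.957 and 0.882 in limma for 3 against 2 doublets. With the remaining samples normalized anew they were 0.15 and -0.34. Without any normalization the median probe shifted by 0.66, CHLM differed by 1.19 and Z-ISO by -0.36.

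**Figure D3:**
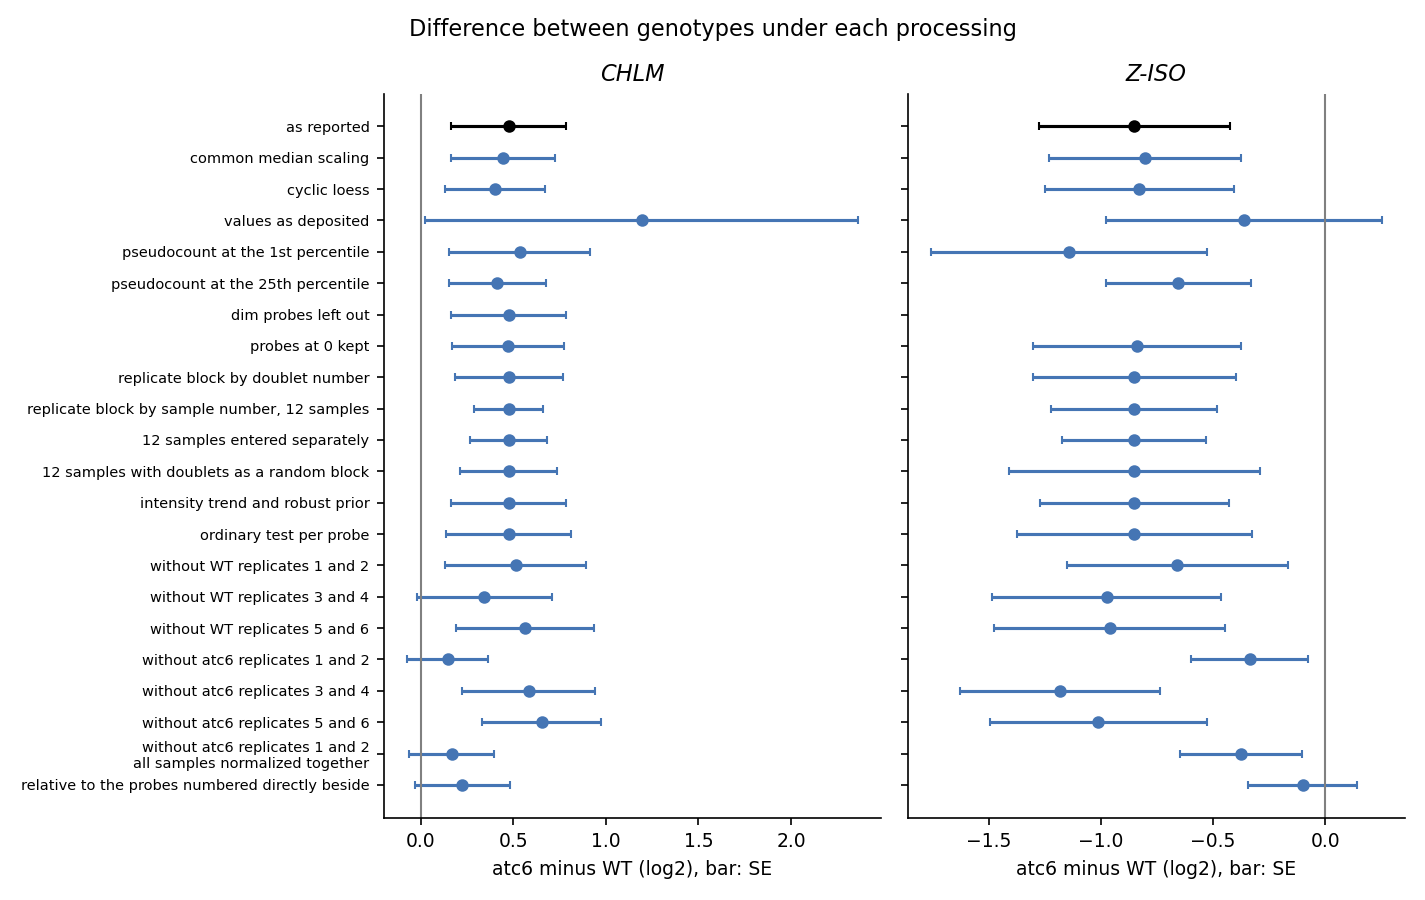
Difference between atc6 and wild type (log2, point) with its standard error (bar) for CHLM (left) and Z-ISO (right) under each way of processing the data, with the reported value in black. CHLM stays above 0, from 0.15 to 1.19, and Z-ISO below 0, from -1.18 to -0.10; Z-ISO has no point where dim probes were left out.

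Probes numbered directly beside these genes moved with them. What the numbers stand for on the array is not given in the sources used here. Probe 1755, just before Z-ISO, was at 0.243 and 0.232 of the sample median in atc6 replicates 1 and 2, against 0.962 to 1.23 in the other atc6 samples and 1.09 to 1.62 in wild type. Probe 1757, just after it, was at 2.84 and 3.01 times the sample median in the same replicates, against 9.78 to 12.1 in the other atc6 samples and 10.1 to 17.6 in wild type. With brightest probes at 30.1 and 31.4 and medians at 4.46 and 4.52, no probe of these replicates could reach 9.78 times the median. On the normalized log2 scale probe 1757 was at 1.93 and 2.01 in these replicates. It was at 2.63 to 3.08 in the other atc6 samples and at 3.23 to 3.41 in wild type. The differences of probes 1755 and 1757 between genotypes were -0.75 and -0.74, beside -0.85 for Z-ISO. Probe 2090, just before CHLM, was at 1.99 and 1.80 times the sample median in atc6 replicates 1 and 2, against at most 1.34 in the other atc6 samples and at most 1.31 in wild type. Its difference was 0.25, beside 0.47 for CHLM.

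Relative to the probes numbered directly beside, the change of Z-ISO was small. Minus the mean of probes 1755 and 1757, Z-ISO was at -0.93, -1.59 and -1.29 in the wild-type doublets and at -1.54, -1.31 and -1.26 in those of atc6, and the groups overlapped. On this scale Z-ISO differed by -0.10 ± 0.24 (SE; 95% interval -0.66 to 0.46). Minus probe 2090, CHLM was at 0.08, 0.16 and 0.68 in wild type and at 0.66, 0.24 and 0.69 in atc6, a difference of 0.23 ± 0.26 (95% interval -0.36 to 0.81). The adjusted p was 0.960 for Z-ISO and 0.883 for CHLM in limma over the 3113 probes with a neighbour by number. CHLP went the other way: relative to its neighbours by number it differed by 0.72 ± 0.36 (SE), against 0.40 before, with an adjusted p of 0.691 in limma. HEMA3 turned from -0.12 to 0.39 ± 0.34. This comparison was chosen after the data were seen.

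**Figure D4:**
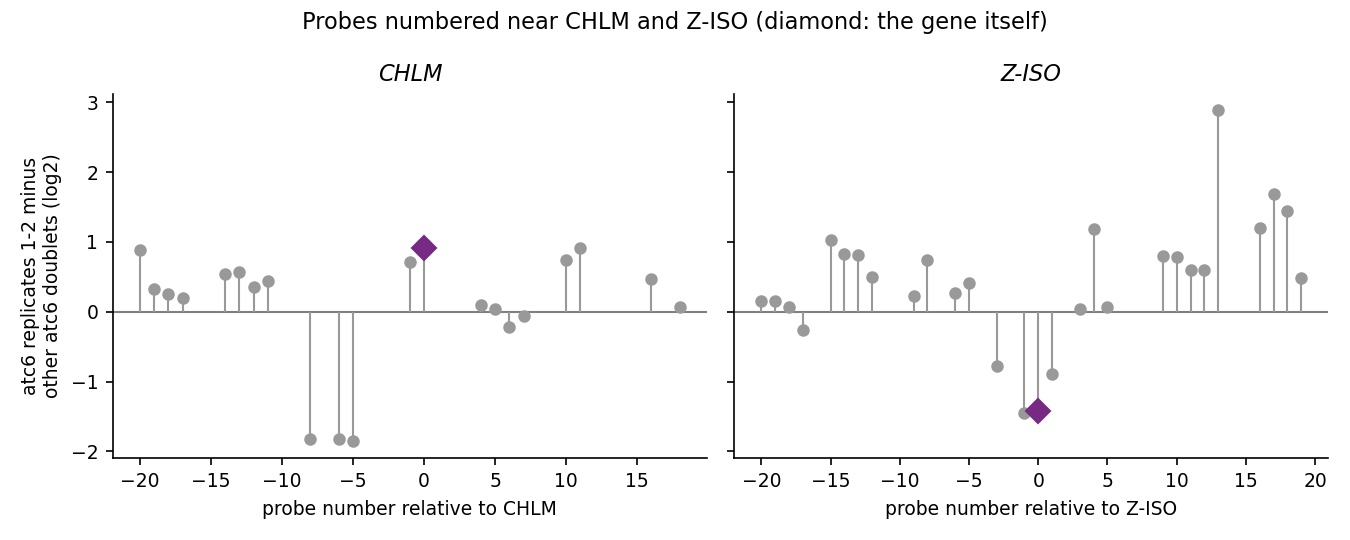
Log2 level in atc6 replicates 1 and 2 minus the mean of the other atc6 doublets, for the probes numbered within 20 of CHLM (left) and Z-ISO (right); the purple diamond is the gene and grey points are the other probes. Z-ISO at -1.43 lies in a run of low probes with -1.45 just before and -0.90 just after it, and CHLM at 0.92 stands next to a probe at 0.72, with others 5 to 8 numbers lower near -1.8.

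Consecutive probes moved alike on average across the array. The level in atc6 replicates 1 and 2 minus that in the other atc6 doublets correlated between directly consecutive numbers at Pearson r = 0.63 across 2395 pairs of probes, and at 0.064 when the numbers were 5 apart. Mean levels of consecutive probes hardly correlated (r = -0.04). For the difference between atc6 and wild type, the correlation of consecutive probes was 0.40, and it was 0.17 without atc6 replicates 1 and 2. Wild-type replicates 1 and 2 minus the other wild-type doublets gave 0.48. These values describe pairs of probes, which are not independent and share their samples. Whether they reflect the position of the probes on the array was not tested.

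**Figure D5:**
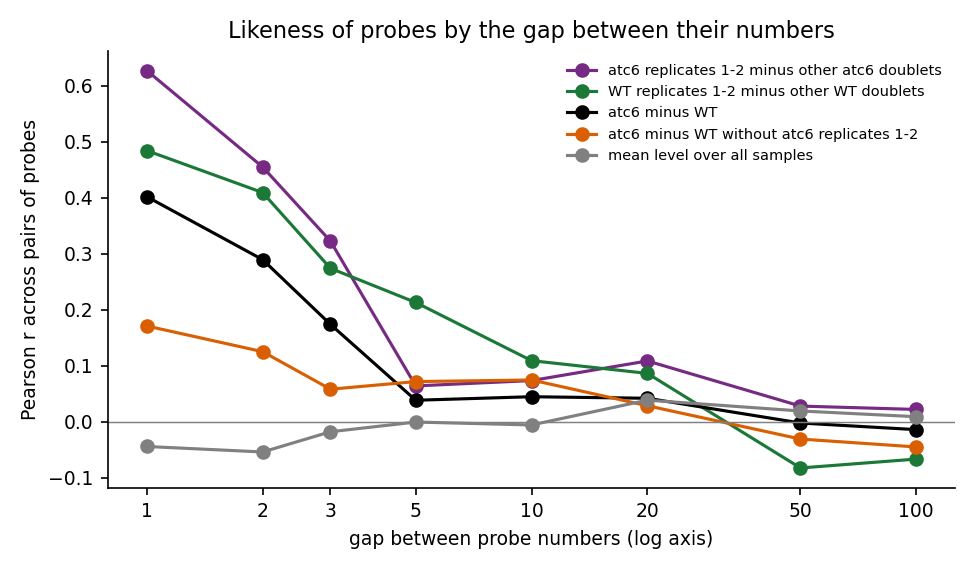
Pearson r across pairs of probes whose numbers differ by the gap on the x axis (log axis), for the contrasts between doublets, for the difference between genotypes with and without atc6 replicates 1 and 2, and for the mean level. At a gap of 1, r is 0.63 for the first doublet of atc6 against its others and 0.40 for atc6 minus wild type, and the mean level stays near 0 at all gaps shown.

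The genes whose pattern over the 6 doublets was most like that of each member were sought among 664 others with a probe of their own, by the root-mean-square difference of levels centred on each gene's mean. For CHLM the nearest were AT1G70350 at 0.081, AT2G24810 at 0.11 and CHLP at 0.11. A flat pattern would lie at 0.41 and the median gene lay at 0.48. All 3 had their highest doublet in atc6 replicates 1 and 2, as CHLM did, with differences between genotypes of 0.44, 0.35 and 0.40, which were 0.15, 0.04 and 0.13 without these replicates. This largely follows from choosing them by likeness over the same doublets. AT1G70350 was dim, at -1.50 to -1.27 in the wild-type doublets and -1.29 to -0.36 in those of atc6. With pseudocounts at the 1st and 25th percentiles it differed by 1.05 and 0.26, and AT2G24810 by 0.58 and 0.24. Relative to the sample median, as given above, the first atc6 doublet of CHLP was not its highest.

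For Z-ISO the nearest were AT5G15280 at 0.14, AT2G46300 at 0.17 and AT1G50770 at 0.20, where a flat pattern would lie at 0.67 and the median gene lay at 0.76. All 3 had their lowest doublet in atc6 replicates 1 and 2, at -0.25, 0.25 and -0.07 on the log2 scale, against 1.31 to 1.98 in the other atc6 doublets and 1.45 to 2.46 in wild type. Their differences between genotypes were -0.73, -0.72 and -0.81, and -0.17, -0.14 and -0.30 without these replicates. Here too this largely follows from the choice by likeness. None of the 6 genes near either member passed over all probes, with an adjusted p of at least 0.845 in limma.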

How the data were processed

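The authors deposited a single table of linear intensities for 12 samples, with values from 0 to 100. This unit was read from the values. How they were scanned, background-corrected and scaled is not given in the sources used here. Samples were quantile-normalized together, leaving out 110 probes with 0 throughout, and log2 was taken after adding a pseudocount of 0.267, which is the 10th percentile of the normalized values above 0, so that differences understate those of dim probes. Replicates 1 and 2, 3 and 4, and 5 and 6 were averaged as doublets. The labels do not say that these are separate cultures, so p-values of the reported fit measure only the spread between averaged doublets, which may be technical. Genotypes were compared with limma 3.58.1 in R 4.3.3 (lmFit and eBayes, two-sided) with Benjamini-Hochberg adjustment over 3329 probes. The fit was also run on simulated data with independent noise of equal spread in both genotypes. Such a simulation cannot show how a single divergent doublet, or probes that move together, affect the fit.

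Whether sample numbers pair the genotypes was checked from the data: deviations of same-numbered samples correlated across probes at 0.11 to 0.30, each above 0.1, and those of averaged doublets at 0.068, 0.14 and 0.24. Every pair of samples passed 0.1, but the first pair of averaged doublets did not. Each correlation was above the highest with a differently numbered sample or doublet of the other genotype. That highest value was 0.066 to 0.12 for samples and 0.064, 0.064 and -0.050 for averaged doublets, so the first pair of doublets exceeded it only slightly. The reported fit used no pairing, and the replicate block was fitted as an alternative.

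Gene names come from GEO's platform annotation, possibly outdated, in which 692 probes had 1 gene, 870 several and 1877 none listed. For 690 of the 692, names were updated through the gene ID in RefSeq's TAIR10.1 table. Genes named are CHLM, Z-ISO, every listed pigment gene with a probe of its own and, for each of CHLM and Z-ISO, the 3 genes of nearest pattern. Neighbouring probes are given by number and were singled out after their values were seen. The members, lists and doublets were chosen with earlier results of these data known. Alternatives were other normalizations, pseudocounts and filters, replicate blocks, other variance priors and leaving out samples or doublets.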

Additional observations from a re-analysis of the deposited data

Results flagged for a closer look

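In the wild-type samples, Z-ISO relative to the median probe of its sample had 1 value far from the others. Replicate 1 was at 2.29 and the other 5 samples at 0.919 to 1.35, so that the gap to the nearest was 0.686 of the whole range, above Dixon's critical value for 6 samples. Chance marks about 1 in 20 such groups, and this was 1 of 24 looked at (4 genes, 2 genotypes and 3 scales). The 6 samples form 3 close doublets and are not independent values. On the deposited scale the ratio was 0.618 and on the normalized log2 scale 0.587, both below that value. Without wild-type replicate 1 the log2 difference of Z-ISO between genotypes was -0.74.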

How the results depend on the processing

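CHLM kept a positive and Z-ISO a negative difference under every alternative run, and neither passed over all probes in any. The lowest adjusted p was 0.184 for CHLM, with a replicate block by sample number on 12 samples, and 0.147 for Z-ISO, with 12 samples entered separately, both of which treat repeats as independent. Averaged doublets with a replicate block gave an adjusted p of 0.819 for both genes and 0 probes called, and the block changed no other call. No value for Z-ISO could be had with dim probes left out, since it was among them. With samples or doublets left out, CHLM ranged from 0.15 to 0.65, Z-ISO from -1.18 to -0.34 and CHLM minus Z-ISO from 0.48 to 1.77. CHLM minus Z-ISO was 0.33 relative to the probes numbered directly beside, an alternative chosen after seeing the data. The number of probes called was 1 with doublets as a random block, 1 under a robust prior with an intensity trend, 1 under a pseudocount set at the 1st percentile, 55 with the block by sample number and 99 with 12 samples entered separately, and 0 to 2 with samples or doublets left out. HEMA3 changed sign to 0.013 with common median scaling, 0.67 on the values as deposited and 0.39 relative to the probes beside, and ranged from -0.42 to 0.32 with samples or doublets left out, being positive only without atc6 replicates 1 and 2. AT5G15280 changed sign to 0.14 relative to the probes beside. The cause was not tested. With 3 averaged doublets a side, the intervals of both genes reach past a 2-fold difference, which was therefore not excluded.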
